A study of Mus musculus with 6 samples.

Results

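Interferon-inducible gene families are the genes that cells switch on when interferon, or a sensed viral nucleic acid, signals to them. The members were taken by name from the deposited gene table: the Ifit, Ifitm, numbered Ifi, Oas, Gbp, Mx, Isg, Irf and Stat families with Ifih1, Bst2, Rsad2, Usp18 and Rtp4, and without the bone gene Ifitm5. This gave 65 of the 19353 rows, under 64 names, since the name Gbp6 stands on 2 rows. GENCODE M21 calls the second of them (ENSMUSG00000079362) Gm43302, the name used here. Names chose the members, so a few have little to do with interferon: Isg20l2 and Ifitm10 are relatives by sequence or name.

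The libraries came from wild-type (WT) mouse bone marrow mesenchymal stem cells, stromal cells that can form bone, and fell into 2 groups. MCH samples (3) received melanin-concentrating hormone, a neuropeptide, at 0.5 µM, and Control samples (3) did not. Every sample was in medium that drives bone formation, which contained dexamethasone (a glucocorticoid, 100 nM), β-glycerophosphate (10 mM) and ascorbic acid (50 µM). Sampling was on day 9 by the titles but on day 8 by the design text. The labels used here give neither strain, age nor any pooling of animals. They also leave unsaid whether replicates were independent animals or dishes, and the p-values therefore reflect only library-to-library spread, possibly technical. The 3 MCH columns carry MCH in their names. The other 3 columns were taken as Control because they do not and the series has no further group; every direction rests on that. The comparison asks how the cells' transcripts differed when MCH was present.

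As background, type I interferon binds the receptor made of IFNAR1 and IFNAR2 and activates the kinases JAK1 and TYK2. These phosphorylate STAT proteins, among them STAT2, which join IRF9 and bind the interferon-stimulated response element (ISRE) in promoters. Interferon gamma acts through IFNGR1 and IFNGR2, and its target genes carry gamma-activated sequences (GAS). The induced proteins bind viral RNA (IFIT), make 2-5A to activate RNase L (OAS), hold viruses in endosomes (IFITM), attack the membranes around intracellular pathogens (GBP) or tag proteins (ISG15). Stromal cells carry both receptors and can respond.

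With MCH, 3 members were higher and 5 were lower, of 58 tested, which makes 13.8%, against 9.04% of all genes tested. A gene passed when its p from edgeR's quasi-likelihood test, adjusted by Benjamini-Hochberg over all genes tested, was under 0.05. Higher were Isg15, Ifit1 and Ifi44. Lower were Ifitm6, Ifitm1, Ifitm2, Ifi27l2a and Stat2. Over all 13662 genes tested, 3.64% were higher and 5.40% lower, against 5.17% and 8.62% of the members tested. The median log2 fold change was -0.07 over the members tested and 0.00211 over all genes tested. Calls among the members ran in both directions. The other 7 members had 0 to 16 counts per library and were left out by the filter on low counts. Of the members tested, 47 had a log2 fold change under 0.5 in size.

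Upstream sequences of members that passed the threshold show which of them carry the ISRE core. The RefSeq table held none for Ifi27l2a, and Stat2 is described below without its sequence. The sequences shown are the 150 bases before the RefSeq start on GRCm38.p6, written along the gene. The core (GAAA, 2 bases of any kind, GAAA) on either strand is in capitals. Overlapping matches run together. The genes higher with MCH are shown first: Isg15 at chr4:156200819-156200968 (minus strand), Ifit1 at chr19:34640739-34640888 (plus strand) and Ifi44 at chr3:151749911-151750060 (minus strand). The 3 Ifitm genes that were lower follow: Ifitm2 at chr7:140955962-140956111 (minus strand), Ifitm6 at chr7:141016893-141017042 (minus strand) and Ifitm1 at chr7:140967926-140968075 (plus strand). The Ifitm1 stretch lies inside the locus that the deposited table gives for the gene (chr7:140967221-140969825). The bases before that locus were therefore not searched. Those of Ifit1 and Ifi44 reach into their loci in part.
Isg15: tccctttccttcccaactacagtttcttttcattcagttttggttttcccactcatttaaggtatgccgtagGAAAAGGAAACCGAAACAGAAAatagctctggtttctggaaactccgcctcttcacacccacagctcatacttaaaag
Ifit1: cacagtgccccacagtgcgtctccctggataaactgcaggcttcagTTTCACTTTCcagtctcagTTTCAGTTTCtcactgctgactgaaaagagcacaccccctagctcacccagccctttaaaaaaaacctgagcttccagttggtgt
Ifi44: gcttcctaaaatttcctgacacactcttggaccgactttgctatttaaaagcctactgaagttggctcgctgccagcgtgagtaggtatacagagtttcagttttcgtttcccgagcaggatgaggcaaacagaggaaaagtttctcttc
Ifitm2: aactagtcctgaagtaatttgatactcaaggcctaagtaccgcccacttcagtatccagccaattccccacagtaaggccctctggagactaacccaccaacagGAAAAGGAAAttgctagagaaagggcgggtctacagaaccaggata
Ifitm6: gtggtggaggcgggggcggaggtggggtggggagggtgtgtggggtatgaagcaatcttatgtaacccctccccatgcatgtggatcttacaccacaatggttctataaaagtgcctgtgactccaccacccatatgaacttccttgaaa
Ifitm1: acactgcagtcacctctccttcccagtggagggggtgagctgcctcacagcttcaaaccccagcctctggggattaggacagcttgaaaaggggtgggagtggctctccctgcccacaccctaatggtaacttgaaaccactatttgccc

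Isg15 held 3 overlapping matches, the first beginning 78 bases before the start (position -78), and Ifit1 held 2, the first at -104. Ifitm2 held 1 at -46 and Stat2 held 1 at -222, outside the part shown for the others. Ifi44, Ifitm6 and Ifitm1 held none of these letters in the window from 250 bases before to 50 after the RefSeq start, which for Ifitm1 is inside its locus. Matches were thus found both in genes that were higher and in genes that were lower. Over all members with an entry, 24 of 45 held the ISRE core, in 25 of 57 promoters (43.9%), against 3.44% of all 32851 promoters of the same length in the table. The GAS letters TTCNNNGAA, which are their own reverse complement, stood in 13 of these 57 promoters (22.8%), against 8.30% of all. Among the members that did not pass the threshold, 19 of 35 held the ISRE core. A match is a description of letters, not a site.

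On the deposited FPKM scale, which divides by gene length, 19 of the 65 members lay under 1 FPKM, 22 from 1 to 10, 19 from 10 to 100 and 5 at 100 or over. Ifitm3, whose protein blocks viral fusion in endosomes, was the highest with 1855 ± 125 FPKM in MCH and 1927 ± 111 FPKM in Control (SD, n = 3 each). Its relative Ifitm2 had 912 ± 69.1 FPKM in MCH and 1276 ± 130.3 FPKM in Control. Both together made up 64.8% of the summed mean FPKM of all members. Bst2, which encodes the membrane protein tetherin, followed with 568 ± 51.1 FPKM in MCH and 575 ± 35.2 FPKM in Control. Ifi27l2a came next with 210 ± 35.2 FPKM in MCH and 385 ± 62.4 FPKM in Control. Ifi202b, of the DNA-binding PYHIN family and known to differ in level between inbred strains, had 102 ± 0.946 FPKM in MCH and 101 ± 4.85 FPKM in Control. Neighbours in this order from Ifitm3 to Ifi27l2a were separated by more than the spread within groups, and Ifi202b lay below Ifi27l2a by more than it too. Ifi27, with 94.4 ± 8.66 FPKM in MCH and 87.8 ± 7.16 FPKM in Control, did not differ from Ifi202b beyond its spread in MCH. In Control, Ifi27 lay below Ifi202b by more than either SD. At the low end, Irf4, Ifi44l and Oas1d had 0 to 5 counts in each library. The members together took 0.430% to 0.467% of the counted reads in MCH libraries and 0.473% to 0.500% in Control libraries. This share weighs most the members with many counts. Among them Ifitm2 and Ifi27l2a were lower with MCH, while Ifitm3 and Bst2 did not pass, so it does not describe the typical member.

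**Figure D1:**
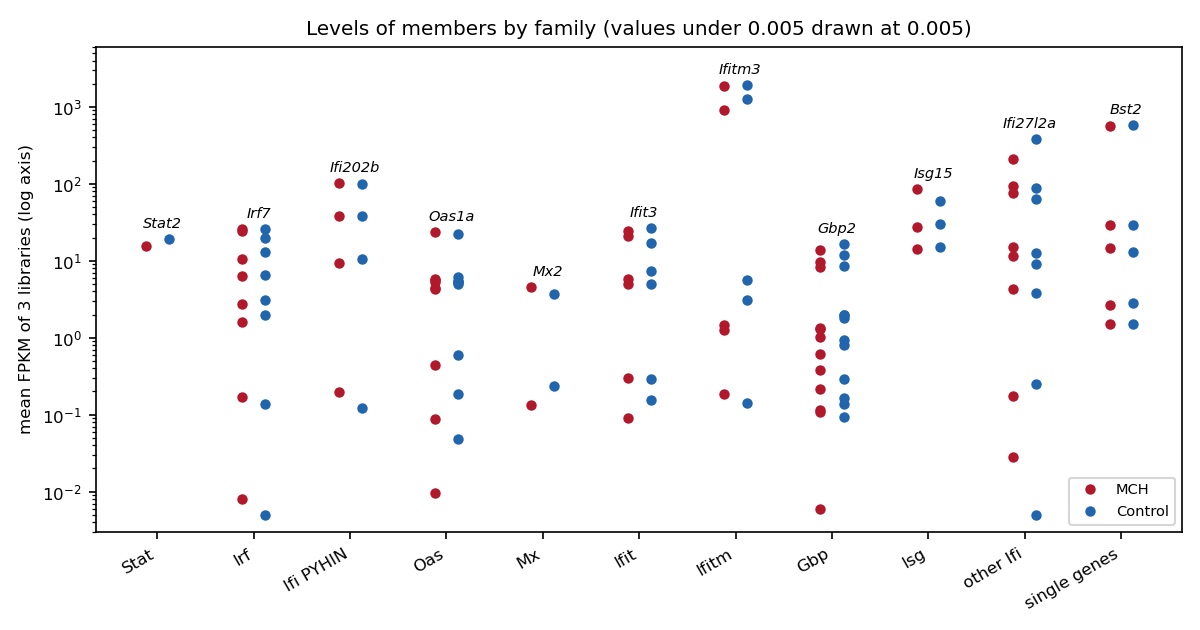
Mean FPKM of members on a log axis, in columns by family, with MCH means left in red and Control means right in blue (3 libraries each). Ifitm3 stands highest at 1855 FPKM in MCH and 1927 FPKM in Control, and the highest member of each family is named.

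Of the signal transducers, Stat2 fell. This gene, whose protein is part of the complex that type I interferon activates, had 69.6, 71.2 and 66.3 CPM (counts scaled to library size by TMM) in MCH replicates 1 to 3, against 82.6, 88.0 and 85.1 CPM in Control replicates 1 to 3. All MCH libraries were below all Control libraries, and the log2 fold change was -0.30 ± 0.06 (SE; adjusted p = 0.0278). Irf9, the DNA-binding part of the complex, had 54.9 ± 2.44 CPM in MCH and 55.5 ± 5.16 CPM in Control, and the 95% interval of its log2 fold change ran from -0.22 to 0.19. Stat2 did not pass when MCH replicate 2, MCH replicate 3 or any Control replicate was left out (adjusted p from 0.0567 to 0.126).

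None of the 7 interferon regulatory factors (IRF) tested passed the threshold; 2 had an unadjusted p under 0.05, as did 26.8% of all genes tested, and DESeq2 called 0. Irf7, the amplifier of the interferon alpha response, was their most abundant member with 25.6 ± 0.296 FPKM in MCH and 26.0 ± 1.85 FPKM in Control. Its log2 fold change was -0.01, with an interval from -0.18 to 0.16. Irf3, the first factor activated by nucleic acid sensors, had 53.9, 60.3 and 58.5 CPM in MCH, against 55.5, 41.0 and 45.3 CPM in Control. The groups overlapped through Control replicate 1 (0.29 ± 0.12, adjusted p = 0.169). Without that library the adjusted p of Irf3 was 0.0499 and it counted as higher. Irf1, a factor induced by interferon gamma, had 15.7 ± 1.03 CPM in MCH and 17.8 ± 0.667 CPM in Control (-0.18 ± 0.10, adjusted p = 0.273). Irf4, a factor of lymphocytes, had 0 or 1 counts per library.

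Of the 5 genes taken singly 0 passed, 1 had an unadjusted p under 0.05 (26.8% of all genes tested did) and DESeq2 called 0. Ifih1, which encodes the RNA sensor MDA5, had 17.2 ± 0.821 CPM in MCH and 17.2 ± 2.61 CPM in Control (0.00116 ± 0.13 on the log2 scale). Bst2 had a log2 fold change of -0.01, with an interval from -0.23 to 0.21. Rsad2, which encodes the antiviral enzyme viperin, had 12.8 ± 1.53 CPM in MCH and 13.6 ± 1.42 CPM in Control. Rtp4, a regulator of interferon responses, had 46.7 ± 2.07 CPM in MCH and 45.4 ± 0.339 CPM in Control. Usp18, which removes ISG15 from proteins and restrains the receptor, had 52.9, 48.9 and 52.2 CPM in MCH, against 46.1, 44.2 and 43.6 CPM in Control. All MCH libraries of Usp18 were above all Control libraries, yet the difference did not pass (0.20 ± 0.07, adjusted p = 0.121). Of the 4 PYHIN genes, Ifi202b, Ifi203 and Ifi204 lay between -0.14 and 0.03 on the log2 scale. Ifi205 had 27, 13 and 9 counts in MCH and 8, 10 and 13 in Control (0.67 ± 0.49, adjusted p = 0.419).

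**Figure D2:**
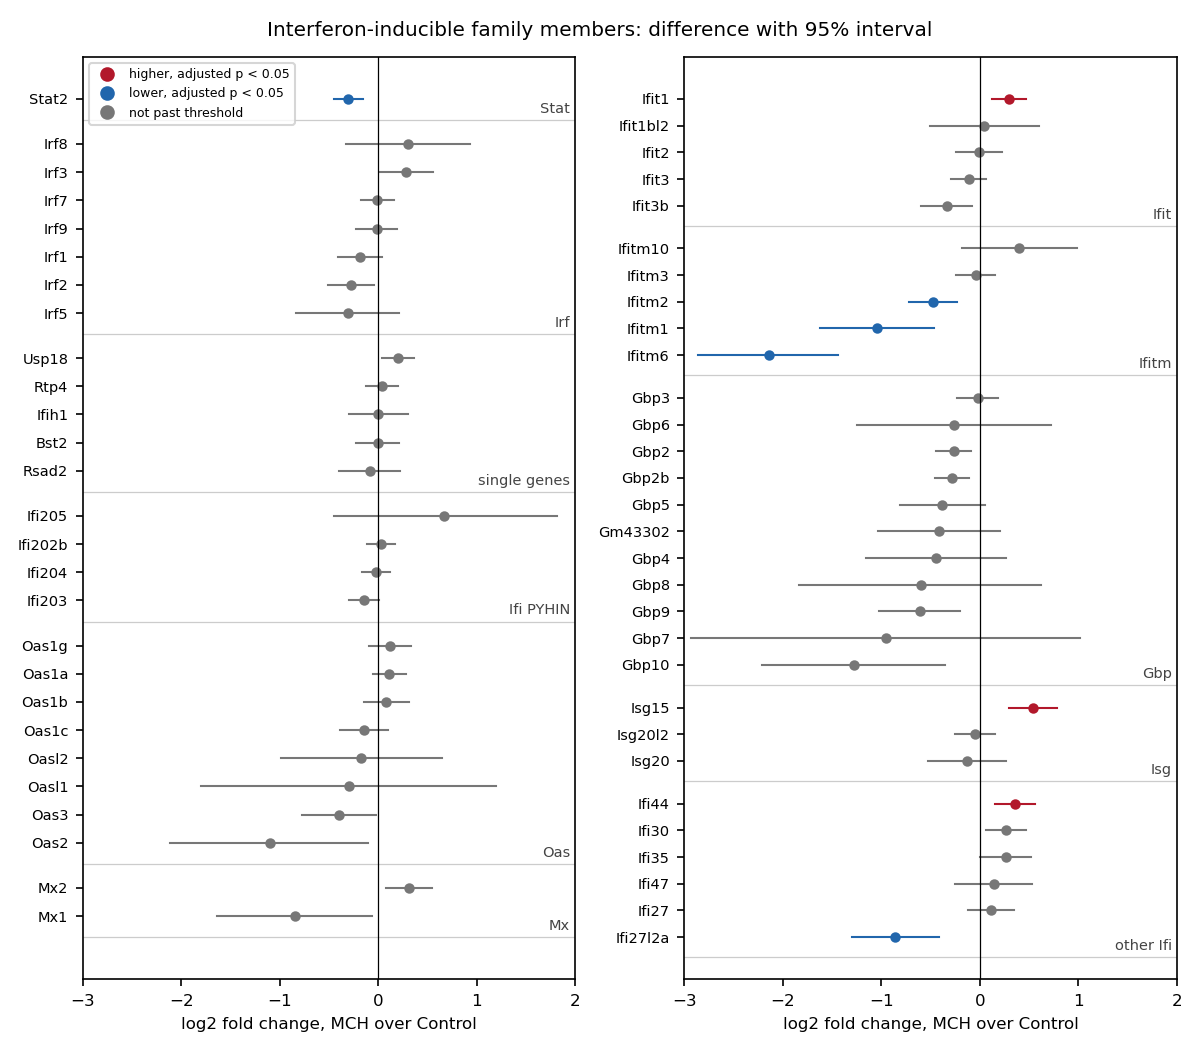
Log2 fold change of MCH over Control for tested members, grouped by family, with 95% intervals as lines. Ifitm6 lies lowest at -2.14, Isg15 is the highest of those past the threshold at 0.54, and all 11 Gbp points lie below 0.

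Among members past the threshold, the 2 largest falls were those of Ifitm6 and Ifitm1, while Ifitm3, the family's main transcript, did not pass. Ifitm6, a short family member known from myeloid cells, had 12, 7 and 16 counts in MCH, against 44, 63 and 51 counts in Control. All MCH libraries were below all Control libraries, the means were 0.676 ± 0.268 CPM in MCH and 2.99 ± 0.297 CPM in Control, and the log2 fold change was -2.14 ± 0.31 (adjusted p = 0.00752). Ifitm1, which acts at the cell surface, had 39, 39 and 22 counts in MCH, against 66, 67 and 75 in Control (-1.04 ± 0.25, adjusted p = 0.0412). Ifitm2 had 513, 604 and 608 CPM in MCH, against 905, 761 and 730 CPM in Control. Its groups did not overlap either, with a log2 fold change of -0.47 ± 0.11 (adjusted p = 0.0335). Ifitm3 had 1151, 1368 and 1275 CPM in MCH, against 1278, 1246 and 1383 CPM in Control, and its interval ran from -0.24 to 0.15. Ifitm10, the distant relative, had 33, 39 and 30 counts in MCH, against 27, 32 and 19 in Control (0.40 ± 0.25, adjusted p = 0.346).

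The Ifitm2, Ifitm1, Ifitm3 and Ifitm6 genes are neighbours on chromosome 7 (GRCm38, per the table's loci). Ifitm2 lies at chr7:140954839-140955961, Ifitm1 at chr7:140967221-140969825, Ifitm3 at chr7:141009586-141010770 and Ifitm6 at chr7:141015812-141016892. A ratio of neighbours within a library does not depend on library scaling. The ratio of Ifitm2 to Ifitm3 counts was 0.446, 0.442 and 0.477 in MCH, against 0.708, 0.610 and 0.527 in Control. For Ifitm6 to Ifitm3 the mean log2 ratio was lower in MCH by 2.18, a difference of -2.18. Both ratios, and that of Ifi27l2a to Ifi27, separated the groups fully; the pairs were chosen after their values were seen. The exact two-sided permutation test gave 0.1 for each, also when adjusted over the 3 ratios, the smallest p that 3 against 3 allows. Of the 50-base windows in Ifitm2 transcripts, 48.5% also occur in transcripts of other annotated genes, against 10.0% for Ifitm3 and 0 for Ifitm6, so the Ifitm2 value depends on how shared reads were counted. Leaving out MCH replicate 2, MCH replicate 3 or any Control replicate ended the calls of Ifitm1 (adjusted p from 0.0833 to 0.137) and Ifitm2 (0.0646 to 0.0944). Ifitm1 did not pass with limma-voom either (adjusted p = 0.05002). Ifitm6 was called in each fit with 1 library left out (adjusted p from 0.0152 to 0.0377).

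Ifi27l2a, one of the genes most strongly induced by type I interferon in mice, had 78.3, 114 and 102 CPM in MCH, against 208, 178 and 147 CPM in Control. Its groups did not overlap, and the log2 fold change was -0.86 ± 0.18 (adjusted p = 0.0412). Its neighbour Ifi27, at chr12:103434211-103440239 beside Ifi27l2a at chr12:103442167-103443680, had 213, 265 and 250 CPM in MCH, against 247, 204 and 221 CPM in Control (0.12 ± 0.10, adjusted p = 0.513). The ratio of Ifi27l2a to Ifi27 counts was 0.367, 0.430 and 0.408 in MCH, against 0.842, 0.875 and 0.664 in Control. Next to them, Ifi27l2b had 2 to 6 counts per library. Ifi27l2a did not pass when MCH replicate 2, MCH replicate 3, Control replicate 1 or Control replicate 2 was left out (adjusted p from 0.0699 to 0.130), nor with no filter on low counts (0.0623).

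Isg15, the ubiquitin-like modifier that interferon induces early, had the largest rise among members past the threshold. It had 56.5, 69.5 and 69.4 CPM in MCH, against 48.0, 41.1 and 45.3 CPM in Control, so each MCH library lay above each Control library. The log2 fold change was 0.54 ± 0.11 (adjusted p = 0.0228). Ifit1, which binds viral RNA lacking cap methylation, had 58.7, 53.7 and 53.8 CPM in MCH, against 45.0, 46.8 and 43.1 CPM in Control (0.30 ± 0.07, adjusted p = 0.0471). Ifi44, an antiproliferative interferon-induced gene, had 83.5, 83.2 and 93.9 CPM in MCH, against 74.2, 66.1 and 63.0 CPM in Control (0.36 ± 0.09, adjusted p = 0.0431). The groups did not overlap for either gene. Leaving out replicate 2 or 3 of either group ended the calls of Isg15 (adjusted p from 0.0755 to 0.0938) and Ifi44 (0.0861 to 0.155). Ifi44 also failed to pass with limma-voom (0.0509), the non-robust fit (0.0538) and limma on log2(FPKM + 1) (0.0502). The Ifit1 call was lost without any 1 of the 6 libraries (adjusted p from 0.0793 to 0.149). It was also lost with upper-quartile scaling (0.0544), no filter on low counts (0.0564), the non-robust fit (0.0540) and limma on log2(FPKM + 1) (0.0545) or log2(FPKM + 0.1) (0.0550).

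**Figure D3:**
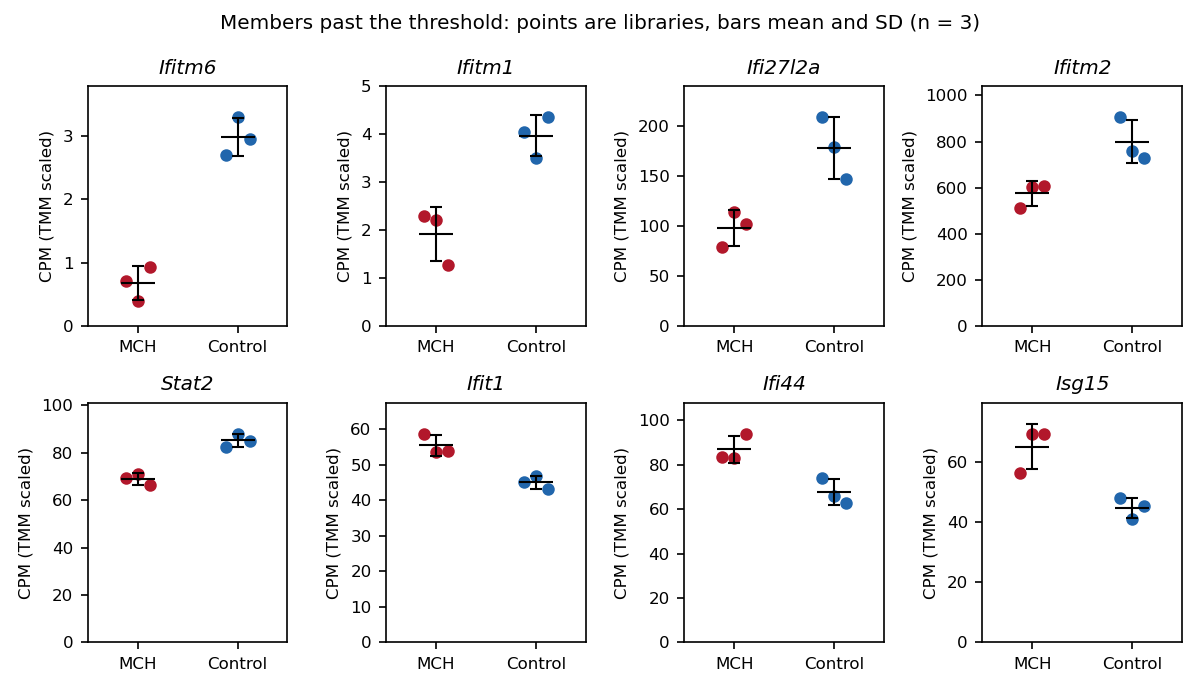
CPM of the 8 members past the threshold, from the largest fall to the largest rise, with MCH left in red and Control right in blue; points are libraries and black bars the mean and SD of 3. No panel has overlapping groups, and Ifitm6 and Ifitm1 rest on under 5 CPM.

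The other Ifit and Ifi genes did not pass. Ifit3, the family's most abundant member per length (FPKM), had 40.5, 44.0 and 45.0 CPM in MCH, against 48.1, 44.6 and 47.1 CPM in Control (-0.11 ± 0.08, adjusted p = 0.404). Ifit3 and Ifit3b are near copies: 51.2% of the Ifit3 windows also occur in another gene, and 45.0% of those of Ifit3b, whose value is therefore uncertain too (-0.34 ± 0.11, adjusted p = 0.103). Ifit2 had 21.8 ± 1.99 CPM in MCH and 21.9 ± 1.35 CPM in Control. Among the Ifi genes, Ifi30, the lysosomal thiol reductase, and Ifi35 had log2 fold changes of 0.26 ± 0.09 (adjusted p = 0.101) and 0.26 ± 0.11 (adjusted p = 0.181). Without MCH replicate 1, Ifi30 was also called higher. Of the remaining Isg genes, Isg20l2, a ribosomal RNA processing factor, had 41.7 ± 3.23 CPM in MCH and 43.1 ± 2.63 CPM in Control.

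All 11 tested members of the guanylate binding protein family (Gbp) had a log2 fold change below 0, and none passed the threshold (4 had an unadjusted p under 0.05, all lower, against 13.8% of all genes tested that were lower at that p). Their median was -0.41 and their range -1.28 to -0.02, while 49.7% of all genes tested lay below 0. Over the 16 alternatives, from 9 to 11 of them stayed below 0. Gbp2, the most abundant per length (FPKM), had 40.9, 38.5 and 36.7 CPM in MCH, against 47.5, 47.0 and 44.9 CPM in Control. Its groups did not overlap (-0.26 ± 0.08, adjusted p = 0.0708). Gbp2b had 27.3, 28.3 and 26.8 CPM in MCH, against 33.6, 31.8 and 34.6 CPM in Control (-0.28 ± 0.08, adjusted p = 0.0597). Gbp9 had 14.8, 9.82 and 12.2 CPM in MCH, against 16.1, 21.9 and 18.1 CPM in Control (-0.61 ± 0.18, adjusted p = 0.0747). Gbp10, with 28, 14 and 42 counts in MCH and 85, 71 and 50 counts in Control, had -1.28 ± 0.40 (adjusted p = 0.0908). Gbp3 had 50.6 ± 3.16 CPM in MCH and 51.4 ± 4.27 CPM in Control.

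These genes are not independent measurements. They lie in clusters on chromosomes 3 and 5, and the loci of Gbp4, Gbp8 and Gbp9, and of Gbp6, Gm43302 and Gbp10, overlap on 1 strand. Of their 50-base windows, 84.1% for Gbp10, 70.7% for Gbp6 and 100% for Gm43302 also occur in another gene, so reads may have been split among them. Gbp2 (2.03%), Gbp2b (1.84%) and Gbp5 (1.44%) share little. DESeq2 called Gbp9 and Gbp10 lower, limma on either log2 FPKM scale called Gbp2b lower, and the fit without MCH replicate 1 called Gbp7 and Gbp9 lower. Gbp11 was not tested, with 0, 1 and 0 counts in MCH and 7, 6 and 2 counts in Control.

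Among the 2-5A synthetases (Oas), 0 of 8 tested members passed; at an unadjusted p under 0.05 there were 2 (26.8% of all genes tested reached it), both lower, and DESeq2 and limma-voom called none. Oas1a, the most abundant by FPKM, had 42.5, 46.8 and 45.9 CPM in MCH, against 43.0, 40.9 and 41.0 CPM in Control (0.12 ± 0.07, adjusted p = 0.365), with 57.6% of its windows shared, all with Oas1g. Oas2 had 18, 5 and 14 counts in MCH, against 20, 29 and 32 in Control (-1.10 ± 0.43, adjusted p = 0.152). The Mx genes pointed apart. Mx2 had 25.4, 21.9 and 22.7 CPM in MCH, against 18.4, 17.6 and 20.4 CPM in Control (0.31 ± 0.10, adjusted p = 0.0977). Mx1, a GTPase against influenza virus that many laboratory strains carry in defective form, had 12, 8 and 16 counts in MCH, against 17, 26 and 23 in Control (-0.84 ± 0.34, adjusted p = 0.159).

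Replicates of a group differed widely for some members, 3 of which are given in full here. Gbp7 had 249 counts in MCH replicate 1 but 44 and 53 in MCH replicates 2 and 3, against 240, 259 and 186 in Control. Oasl2, an OAS-like protein with ubiquitin-like repeats, had 543 counts in MCH replicate 1 but 1276 and 1195 in the others, against 1069, 1193 and 1152 in Control. Oasl1, a translational inhibitor of Irf7, had 717, 269 and 249 counts in MCH, against 594, 326 and 597 in Control. Among the MCH libraries, replicate 1 was thus the high one for Gbp7 and Oasl1 and the low one for Oasl2. For Gbp7 it lay within the Control range, while MCH replicates 2 and 3 lay below every Control library. Without MCH replicate 1 the log2 fold change of Oasl2 was 0.12, against -0.17 with all libraries. Oasl1 shares none of its windows with another gene and Oasl2 0.138%. With a mean of at least 100 counts, 4 of 45 members (8.89%; also Gm43302) had a ratio of 2 or more between libraries of 1 group, against 6.44% of all such genes.

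**Figure D4:**
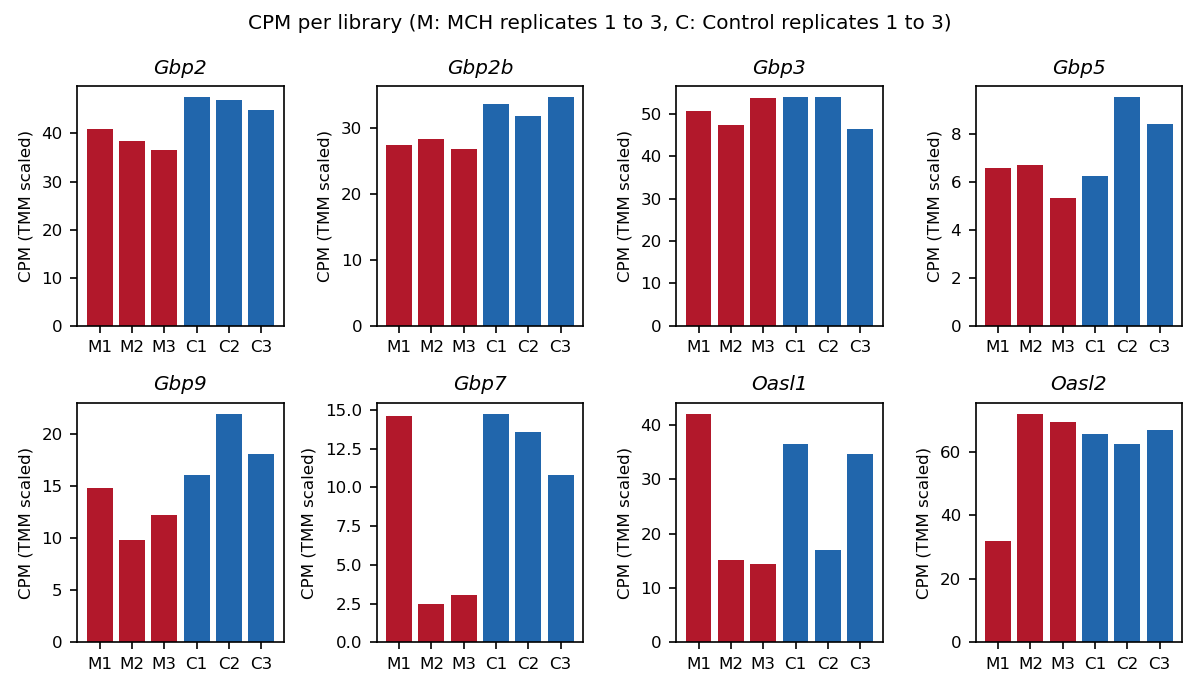
CPM of 5 Gbp genes with modest differences and of 3 members with uneven replicates, 1 bar per library. MCH libraries (M1 to M3, red) stand left of Control libraries (C1 to C3, blue). Among the MCH libraries, replicate 1 is the high one for Gbp7 and Oasl1 and the low one for Oasl2. Gbp7 in MCH replicate 1 lies within the Control range. Gbp2 and Gbp2b are lower in each MCH library.

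Groups that did not overlap were common in these data. In CPM, 9 of the 58 members tested had all MCH libraries above all Control libraries (15.5%, against 16.1% of all genes tested), and 16 had all below (27.6%, against 16.6%). In the authors' deposited table, q under 0.05 was reached by 522 rows in all (2.70%) and by 5 members, Ifitm6 (8.4e-07), Ifi27l2a (0.000277), Ifitm1 (0.0361), Ifitm2 (0.0467) and Gbp10 (0.0477). All 5 had lower counts in the MCH columns, and in the authors' deposited table Isg15 had q = 0.0510. The authors' comparison sets the columns taken here as Control against the MCH columns. It marks Ifitm6, Ifitm1 and Gbp10 as UP, which there means lower with MCH, and leaves Ifitm2 and Ifi27l2a unmarked. The authors' test is not given in the sources used here.

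Interferon itself was scarcely counted. Of 21 ligand genes listed, 4 had a row and none was tested; Ifnb1, the interferon beta gene, had 8, 10 and 5 counts in MCH, against 6, 8 and 8 in Control. The receptor genes were counted in every library. Ifnar1 had 56.4 ± 1.60 CPM in MCH and 59.1 ± 0.662 CPM in Control, and Ifnar2 had 75.7 ± 3.34 CPM in MCH and 72.2 ± 5.86 CPM in Control. Ifngr1 had 58.6 ± 3.06 CPM in MCH and 52.1 ± 1.76 CPM in Control, and Ifngr2 had 31.0 ± 0.670 CPM in MCH and 28.9 ± 0.614 CPM in Control. None of the 8 tested receptor and Janus kinase genes passed (2 at an unadjusted p under 0.05, against 26.8% of all genes tested, and 0 by DESeq2), and the 95% intervals ran from -0.22 to 0.08 for Ifnar1 and from -0.12 to 0.25 for Ifnar2. The lowest adjusted p was that of Tyk2, with -0.24 ± 0.10 (adjusted p = 0.167).

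Other genes of the pathway, from lists chosen with earlier results of these data known, held 10 that fell and 1 that rose among 91 tested, where 5.40% of all genes tested were lower and 3.64% higher. The gene that rose was Eif2ak2, the kinase PKR that senses double-stranded RNA, with 89.9 ± 2.22 CPM in MCH and 69.8 ± 3.05 CPM in Control (0.37 ± 0.06, adjusted p = 0.0152); the 14 other sensors and adaptors tested did not pass. Of 12 negative regulators, Socs3, a feedback inhibitor of cytokine receptors, had 133 ± 1.23 CPM in MCH and 201 ± 3.55 CPM in Control (-0.59 ± 0.05, adjusted p = 0.00100). The phosphatase gene Ptpn1, which acts on JAK2 and TYK2, fell by 0.31 ± 0.05. Of 35 other interferon-stimulated genes, 4 fell: Plac8, with 136 ± 9.42 CPM in MCH and 239 ± 7.59 CPM in Control (-0.81 ± 0.07), Slfn2 (-0.67 ± 0.09), Trafd1 (-0.51 ± 0.10) and the RNA helicase gene Znfx1 (-0.47 ± 0.10).

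Among the antigen presentation genes of MHC class I, 3 of 14 fell, against 5.40% of all genes tested. Nlrc5, the transactivator of these genes, had 10.7 ± 1.23 CPM in MCH and 20.8 ± 0.757 CPM in Control (-0.95 ± 0.11, adjusted p = 0.00364). The non-classical class I gene H2-T23 fell by 0.53 ± 0.08 and the peptide transporter gene Tap2 by 0.33 ± 0.07, whereas B2m (0.03 ± 0.09) and H2-D1 (0.09 ± 0.08) did not pass. Of 6 immunity-related GTPases, Iigp1 fell by 0.45 ± 0.10. Of the MHC class II list only H2-DMa was tested (-0.08 ± 0.12), and Ciita, Cd74, H2-Aa, H2-Ab1 and H2-Eb1 had 0 to 43 counts per library, the 43 being Cd74 in MCH replicate 3. Without MCH replicate 3 or without Control replicate 3, Eif2ak2, Ptpn1, Trafd1, Znfx1, Tap2 and Iigp1 did not pass. Leaving out MCH replicate 2 also ended the calls of Eif2ak2, Znfx1, Tap2 and Iigp1, Control replicate 2 those of Ptpn1, Trafd1, Znfx1, Tap2 and Iigp1, Control replicate 1 those of Trafd1 and Tap2, and MCH replicate 1 that of Tap2. The highest adjusted p in these fits was 0.0637 for Eif2ak2, 0.0810 for Ptpn1, 0.108 for Trafd1 and Iigp1, 0.126 for Znfx1 and 0.135 for Tap2.

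Library totals ran from 16755247 to 18090083 counts in MCH and from 16521980 to 18803949 in Control. In bulk RNA, fewer cells of a type and less RNA per cell cannot be told apart. Markers of the labelled stroma were present and moved with the group. The 14 mesenchymal genes summed to 12344 to 12824 CPM in MCH and 16678 to 17425 CPM in Control, with 7 lower. Beside this and the marker counts below, 5.40% of all genes tested were lower and 3.64% higher. Of 4 osteoblast genes tested 3 were lower, while Sp7 and Bglap had 0 to 4 counts per library. Of immune markers, the pan-leukocyte gene Ptprc had 0 to 2 counts. Of 8 T and NK cell genes, 2 had a row, and they summed to 7.33 to 9.17 CPM in MCH and 2.40 to 3.35 CPM in Control. Nearly all of it was Cd3e, a part of the T cell receptor complex, which was higher with 125, 143 and 153 counts in MCH, against 39, 61 and 55 in Control. Of 3 adipocyte genes tested, Lpl was higher (0.43 ± 0.10), while their median log2 fold change was -0.14. The 6 adipocyte genes summed to 110 to 135 CPM in MCH and 115 to 127 CPM in Control, so these sums overlapped. The 13 monocyte and macrophage genes summed to 141 to 188 CPM in MCH and 172 to 177 CPM in Control. Itgam, C1qa and Tyrobp, at 0 to 15 counts per library, held little of these sums. Of 6 tested, 1 was lower, while their median log2 fold change was 0.43. Of 8 granulocyte genes, 6 had a row, and they summed to 24.7 to 33.3 CPM in MCH and 29.8 to 37.1 CPM in Control. MCH replicate 3 held 50 counts of the macrophage gene Adgre1, against 0 to 11 elsewhere. Without that library Ifitm6 had a log2 fold change of -2.43, against -2.14 with all libraries. Over the fits with 1 library left out, the Ifitm6 value ran from -2.43 to -1.86. Whether it is linked to Adgre1 was not tested. Of the nuclear-retained RNAs, Malat1 had a log2 fold change of -0.68 ± 0.14 and Neat1 one of -0.55 ± 0.07, both past the threshold. The part of these shifts in the members' values was not tested.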

How the data were processed

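RNA from 6 libraries, 3 with MCH and 3 Control, was sequenced as polyadenylated RNA after Trizol extraction, per the labels' protocols. For each gene the deposited table holds read counts in whole numbers beside FPKM, per the file headers, and the p-values and q-values of the authors' own comparison, per the file headers. GRCm38 (mm10) is named in the submitters' processing notes. Aligner, counter, annotation, strandedness and which test the authors ran: not given in the sources used here. Symbols came through Ensembl IDs from GENCODE M21, which held 99.5% of the IDs. A column of log ratios with cells that hold no number was not used.

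The main test on the counts came from edgeR 4.0.16 under R 4.3.3, after filterByExpr (minimum count 10, minimum total 15) and TMM scaling. It was a two-sided quasi-likelihood test with robust dispersions and group as the single term, with Benjamini-Hochberg adjustment over the 13662 genes tested at 0.05. Each standard error is the absolute unshrunken coefficient (log2) over the root of its F value. No interval covers more than the spread between these libraries. Within groups, each pair of libraries exceeded sampling noise, with chi-square over its degrees of freedom at 14.9 to 25.3, and none was merged. Windows of 50 bases were compared over all GENCODE M21 transcripts. Promoters are from RefSeq on GRCm38.p6; 45 of the members matched. Exact permutation tests used scipy 1.17.1.

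Members, gene lists and tests were chosen with earlier results of these data known. Named genes were every member past the threshold, the most abundant member of each family and the lowest where tested, tested members with a log2 fold change of at least 1 in size, a set of core interferon genes, the 4 receptor genes, and the genes past the threshold in each pathway list. Others, such as Gbp7, were named after their values were seen. As alternatives, each library was left out in turn, the replicate number entered as a block, the filter was dropped or set at 1 CPM, scaling was by RLE or upper quartile, and dispersions were non-robust; DESeq2 1.42.0, limma-voom and limma (3.58.1) on log2(FPKM + 1) or log2(FPKM + 0.1) replaced edgeR. The steps were tested on simulated data. A pair of members stays in the counts over all members but is not reported here by name or drawn in the figures.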

Additional observations from a re-analysis of the deposited data

How the results depend on the processing

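The members' calls rest on 3 libraries per group. Leaving 1 out also takes a residual degree of freedom, so an ended call does not by itself show that it depended on that library. Leaving out 1 library at a time gave 0 to 3 members higher and 1 to 7 lower, 65 to 722 genes higher and 256 to 867 lower over the whole table, and 0 to 3 pathway list genes higher and 5 to 9 lower; the median over the members ran from -0.12 to -0.0469. Same-numbered libraries did not deviate together (correlation of deviations -0.16, -0.04 and -0.01 for numbers 1, 2 and 3). With 3 libraries per group this cannot settle whether they shared an animal or dish, which the labels leave unsaid. With the replicate block, 0 members were higher and 0 lower, 28 and 151 genes over the whole table, and 0 and 3 pathway list genes; the block takes residual degrees of freedom from 6 libraries. The non-robust fit and limma on log2(FPKM + 1) each called 1 member higher. Pathway list genes higher were 4 with DESeq2 and 2 with no filter on low counts. Some members near 0, and the MHC class II gene H2-DMa, changed sign when 1 library was left out, with ranges of log2 fold change from -0.0869 to 0.0680 for Bst2, -0.17 to 0.0384 for H2-DMa, -0.00900 to 0.0735 for Ifi202b, -0.12 to 0.0665 for Ifih1, -0.10 to 0.0204 for Ifitm3, -0.0754 to 0.0464 for Irf7, -0.0886 to 0.0390 for Irf9, -0.11 to 0.00550 for Isg20l2, -0.36 to 0.12 for Oasl2 and -0.14 to 0.0124 for Rsad2. Ifih1 was also at -0.00847 with upper-quartile scaling, -0.00175 with a filter of at least 1 CPM in 3 libraries and -0.00164 with limma on log2(FPKM + 1). The cause was not tested. Depth limits Ifitm6, Ifitm1, Gbp10, Oas2 and Mx1, which rest on under 100 counts per library.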
